A study of Homo sapiens with 5 samples.

Results

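Interferon-stimulated genes are described here as 38 genes, fixed by a list of 39 names of which DDX58 and RIGI name a single gene, out of 61220 genes with a listed transcript. For each gene, the reads of all transcripts that the GENCODE v44 annotation of GRCh38 assigns to it were summed, which took in 296 transcripts, 226 of them with at least 1 read. Reads came from long-read nanopore cDNA sequencing of NCI-H1975 and HCC827, both established human lines derived from lung adenocarcinoma and grown in the same medium with fetal calf serum and antibiotics, with no interferon named in the labels. Poly(A) RNA of the lines, carrying the synthetic sequin spike-ins of mix A in NCI-H1975 and mix B in HCC827, was combined by mass, so that HCC827 made up 0, 25, 50, 75 or 100%, with 1 library each. Complementary DNA was amplified by PCR before sequencing. The libraries are named by the NCI-H1975 to HCC827 ratio, from 100:0 to 0:100. All of them drew on 1 RNA preparation per line, so p-values measure the scatter of libraries about a trend and not differences between cultures.

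Interferons are secreted proteins, and cells release those of type I and type III when they sense viral nucleic acid. Type I and type III interferons act through receptors linked to Janus kinases, which lead to a complex that holds STAT2 and IRF9 and binds the interferon-stimulated response element, or ISRE, in the promoters of target genes. Type II interferon acts mainly through a different element, called GAS. The induced genes include RNA sensors, enzymes that act on viral RNA, membrane proteins that block entry or release of virus, and feedback regulators. Epithelial tumour lines can keep a low level of this program without added interferon.

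Libraries held from 2932250 to 4058751 reads. Sequins had 5475 reads in 100:0 and 0 in 0:100, although the labels give mix B to HCC827. The read-weighted mean transcript length went from 2579 bases in 100:0 to 2180 in 0:100, and the mitochondrial share from 5.64% to 8.85%. All 6 epithelial markers were detected and summed to 5575 CPM (reads scaled to a common library size) in 100:0 and 15790 in 0:100. EPCAM was level, at 375.9 and 371.1 CPM, while the other 5 rose with the HCC827 fraction. The 3 lung lineage markers NKX2-1, NAPSA and SFTPB also rose, taking their sum from 43.6 to 371.5 CPM. Of 7 leukocyte markers, PTPRC, CD3E and LYZ had 0 reads in every library, which allows up to 3 reads in each, and the summed level of 65.1 to 100.3 CPM came mostly from CD68, with 1293 reads. CD68 rose with the HCC827 fraction, while HLA-DRA went from 17 reads in 100:0 to 0 in 0:100 and CD14 from 10 to 0. Neither HLA-DRA nor CD14 passed the slope test given below. Of 4 fibroblast markers, COL1A1 and COL1A2 fell with the HCC827 fraction, taking the sum from 185.6 to 7.44 CPM, while DCN had 0 reads. The 3 endothelial markers together had 3 to 4 reads in each library. The part of these shifts in the results below was not tested, apart from length and mitochondrial reads, for which the counts of members that fell were recomputed.

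All 38 genes passed the filter of at least 10 reads in at least 2 libraries. Each gene was fitted with a slope along the mixture, which is the log2 change in level from 0 to 100% HCC827, and tested over all 13492 genes with the edgeR quasi-likelihood test at an adjusted p-value under 0.05. Of the 38 genes, 18 fell with the HCC827 fraction (47.4%), 3 rose and 17 did not pass. Over all genes tested, 22.3% fell and 23.5% rose, or 45.8% in both directions. The median slope of the 38 genes was -0.60, against -0.03 over all genes. Calls depend on reads, and the median gene of the list had 809 reads in all libraries together, against 351 for all genes tested. In RNA of whole cultures, fewer expressing cells and less RNA per cell cannot be told apart.

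Between the pure libraries, which were compared without a test, 16 of the 38 genes were at least 2-fold lower in 0:100 and STAT2 alone was at least 2-fold higher. The shares of all genes were 18.4% and 16.2%. Under library totals, 19 of the genes were at least 2-fold lower and 0 at least 2-fold higher, with STAT2 at 1.91-fold. The values of 16 genes of the list (42.1%) ran in order over the 5 libraries, 15 of them downward, where 28.5% of all genes ran in order and 13.6% did so downward. Summed over the list, the level was 5196 CPM in 100:0, then 4476, 3962 and 3605, and 3100 in 0:100. The sum was 1.68-fold higher in 100:0 than in 0:100 (95% interval 1.63 to 1.72, from counts alone), at 17638 and 8337 reads. IFI27, IFITM3 and ISG15 held 18.9%, 13.2% and 9.84% of these reads, and without them the ratio was 1.67. All levels are scaled by TMM, a method that sets the bulk of genes to no change. Scaling by library totals alone shifted the median slope of all genes from -0.03 to -0.44 and that of the list from -0.60 to -1.01, and the ratio of sums to 2.23.

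**Figure D1:**
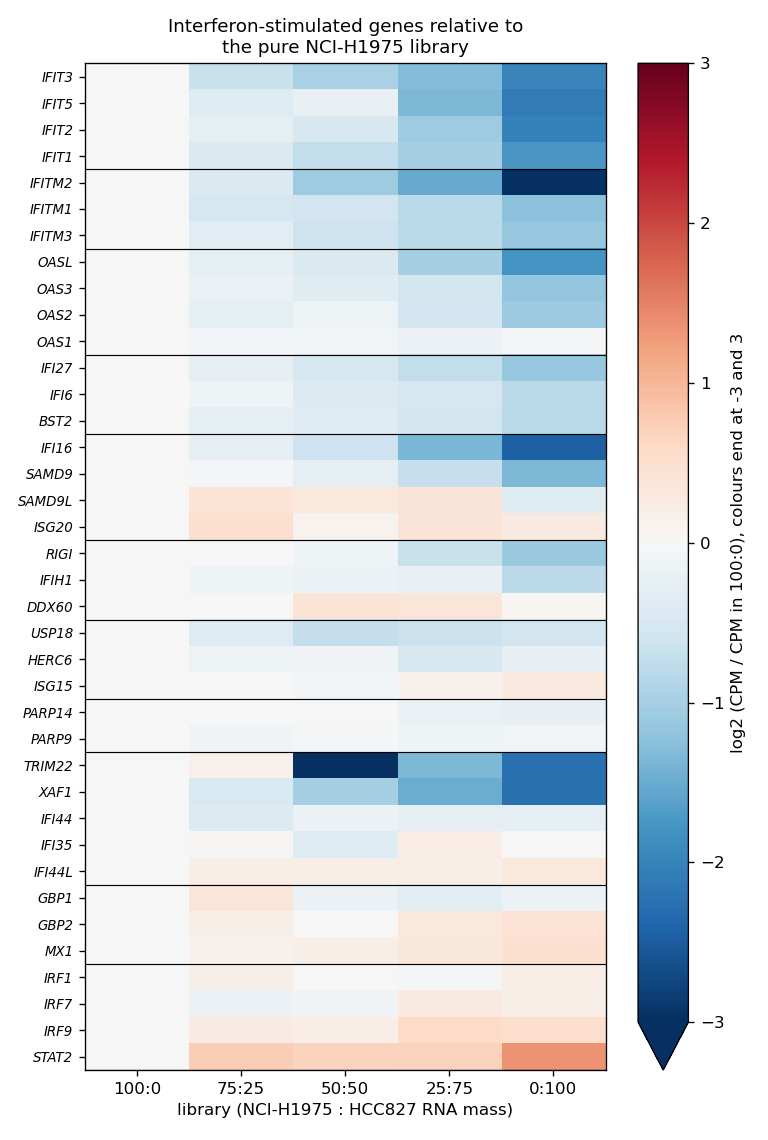
Each row is 1 of the 38 genes, grouped by role between black lines, and each column is 1 library, ordered by HCC827 RNA mass. Colour gives the log2 ratio of TMM-scaled CPM to the 100:0 library, blue for lower. The IFIT and IFITM rows darken toward 0:100, while the rows of STAT2 and IRF9 turn pale red. TRIM22 rests on 36 reads in all.

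The genes of this program are known to share the ISRE, so the letters of promoters were searched. RefSeq promoter windows (GRCh38.p14, 250 bases before to 50 after the start) matched 30 of the 38 genes; GBP2, IFIT2, IFITM2, IRF7, OAS2, OASL, TRIM22 and USP18 had none in the table. The ISRE letters, taken as TTTC and TTTC with 2 bases of any kind between, on either strand, stood in a window of 20 of the 30 genes (66.7%), against 1195 of 27305 genes with a window (4.38%). The GAS letters, taken as TTC and GAA with 3 bases of any kind between, which read the same on both strands, stood in 10 of the 30 (33.3%), against 9.38% of all genes. Both sets of letters stood in 6 of the genes, and in 4 of these a match to one overlapped a match to the other. Of the 20 genes with ISRE letters, 11 fell, 1 rose and 8 did not pass, with a median slope of -0.69. Of the 10 without, 3 fell, 2 rose and 5 did not pass, with a median slope of -0.15. A looser form, AAA and GAAA with 2 bases of any kind between, stood in 24 of the 30 (80.0%), against 12.6% of all genes. With that form, 13 of 24 genes fell and 1 rose, with a median slope of -0.69, and of the 6 without, 1 fell and 2 rose, with a median of 0.057. Over all genes tested, 22.3% fell and 23.5% rose. Among the genes with no window, IFIT2, IFITM2, OAS2 and OASL fell and the others did not pass. Whether slopes differ with the letters was not tested. A match is a description of the letters and not a bound site. The list holds genes chosen as interferon-stimulated, so high shares of ISRE letters could be foreseen and say nothing about these libraries. The genes with a window were also not limited to those tested for a slope.

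The stretches below show the letters in the 6 genes with the steepest called slopes whose match lies outside annotated exons, and in MX1, which rose, and ISG15, which did not pass. MX1 and ISG15 were added after their values were seen, for contrast. Each runs 5′ to 3′ on the strand of the gene, from RefSeq (GRCh38.p14), with the ISRE letters in capitals.
IFIT3 (chr10:89327816-89327909, plus strand): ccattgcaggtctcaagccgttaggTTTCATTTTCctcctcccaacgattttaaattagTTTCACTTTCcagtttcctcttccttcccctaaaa
IFIT1 (chr10:89392482-89392545, plus strand): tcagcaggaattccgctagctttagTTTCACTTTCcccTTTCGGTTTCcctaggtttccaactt
SAMD9 (chr7:93118081-93118140, minus strand): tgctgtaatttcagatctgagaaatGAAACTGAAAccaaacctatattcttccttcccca
IFITM3 (chr11:320861-320937, minus strand): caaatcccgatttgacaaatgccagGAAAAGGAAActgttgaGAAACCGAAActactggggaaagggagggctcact
IFI27 (chr14:94110603-94110675, plus strand): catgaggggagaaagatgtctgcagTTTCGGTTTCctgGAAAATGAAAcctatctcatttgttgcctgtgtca
IFI6 (chr1:27672251-27672373, minus strand): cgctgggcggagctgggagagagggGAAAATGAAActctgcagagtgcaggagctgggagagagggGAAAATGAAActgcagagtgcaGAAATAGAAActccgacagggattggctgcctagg
MX1 (chr21:41431829-41431888, plus strand): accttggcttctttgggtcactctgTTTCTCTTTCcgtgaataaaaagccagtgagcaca
ISG15 (chr1:1013359-1013424, plus strand): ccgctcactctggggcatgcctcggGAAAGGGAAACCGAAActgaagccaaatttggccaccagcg
IFI6 holds 3 matches in its stretch, while the stretches of SAMD9 and MX1 hold 1 each. In MX1 the search found a second match, at positions 11 to 20 relative to the start, which is not printed. For IFIT3 too, the search found matches beyond those printed. ISG15, whose slope did not pass, holds 2 that overlap.

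All 4 IFIT genes fell, where 22.3% of all genes tested did. They form a cluster on chromosome 10 (89283694 to 89421605, plus strand), and their proteins bind foreign RNA and hinder its translation. IFIT3 was at 106.1 CPM in 100:0, then 66.7, 53.9 and 43.0, and 26.8 in 0:100, and its slope came to -1.83 ± 0.17 (SE; adjusted p = 6.71e-06 by the edgeR quasi-likelihood test). IFIT1 was at 88.7, 65.6, 53.4, 44.7 and 26.4 CPM in the same order, and its slope came to -1.56 ± 0.18 (SE; adjusted p = 2.29e-05 by the edgeR quasi-likelihood test). Both genes were highest in the pure NCI-H1975 library and dropped at each step. IFIT2 was at 46.8, 39.1, 33.6, 22.4 and 11.5 CPM, and its slope came to -1.74 ± 0.26 (SE; adjusted p = 0.000165 by the edgeR quasi-likelihood test). IFIT5 was at 28.6, 22.01, 24.4, 11.2 and 6.69 CPM, and its slope came to -1.78 ± 0.37 (SE; adjusted p = 0.00162 by the edgeR quasi-likelihood test). In IFIT5, the 50:50 library lay above 75:25, at 95 reads in each. Between the pure libraries the 4 genes were 3.36-fold (IFIT1) to 4.27-fold (IFIT5) lower in 0:100. IFIT1, IFIT2 and IFIT3 overlap the span of LIPA on the opposite strand, which had 868 reads and itself fell with a slope of -1.18 (edgeR quasi-likelihood test, adjusted p = 0.000435). Whether counting used the strand is not given in the sources used here.

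The 3 IFITM genes fell too, beside 22.3% of all genes tested. Their proteins sit in cell and endosome membranes and hinder virus entry, and the genes lie together on chromosome 11 (303655 to 329475). IFITM2 had 365 reads in 100:0 and 11 in 0:100, and its level went from 107.5 CPM through 79.5, 51.1 and 37.4 to 4.09. That was 26.3-fold lower in 0:100 (95% interval 14.5 to 53.1, from counts alone), and the slope of -3.01 ± 0.42 (SE; adjusted p = 0.000106 by the edgeR quasi-likelihood test) was the steepest of the list. Without 0:100 its slope was -2.09, while that of TRIM22, which did not pass, was -2.90. The neighbours of IFITM2 dropped less. IFITM1 was at 282.5, 199.9, 190.2, 162.2 and 120.5 CPM, and its slope came to -1.10 ± 0.14 (SE; adjusted p = 3.87e-05 by the edgeR quasi-likelihood test). IFITM3 was at 765.7, 604.2, 500.2, 438.7 and 348.8 CPM, with a slope of -1.09. The difference in slope between the genes was not tested. The family members are alike over the aligned parts of their GENCODE v44 sequences. IFITM2-201 and IFITM3-201 had 90.7% identical letters over 536 aligned positions. IFITM1-202 had 81.4% with IFITM2-201 over 435 positions and 84.4% with IFITM3-201 over 409. The IFITM2-201 sequence compared was 713 bases long, against a deposited transcript length of 659. How reads that fit several alike transcripts were split is not given in the sources used here, so the division between the members is uncertain. ENSG00000288681, which overlaps IFITM2 and IFITM1 on the same strand, held 324 reads in 100:0 and 104 in 0:100.

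**Figure D2:**
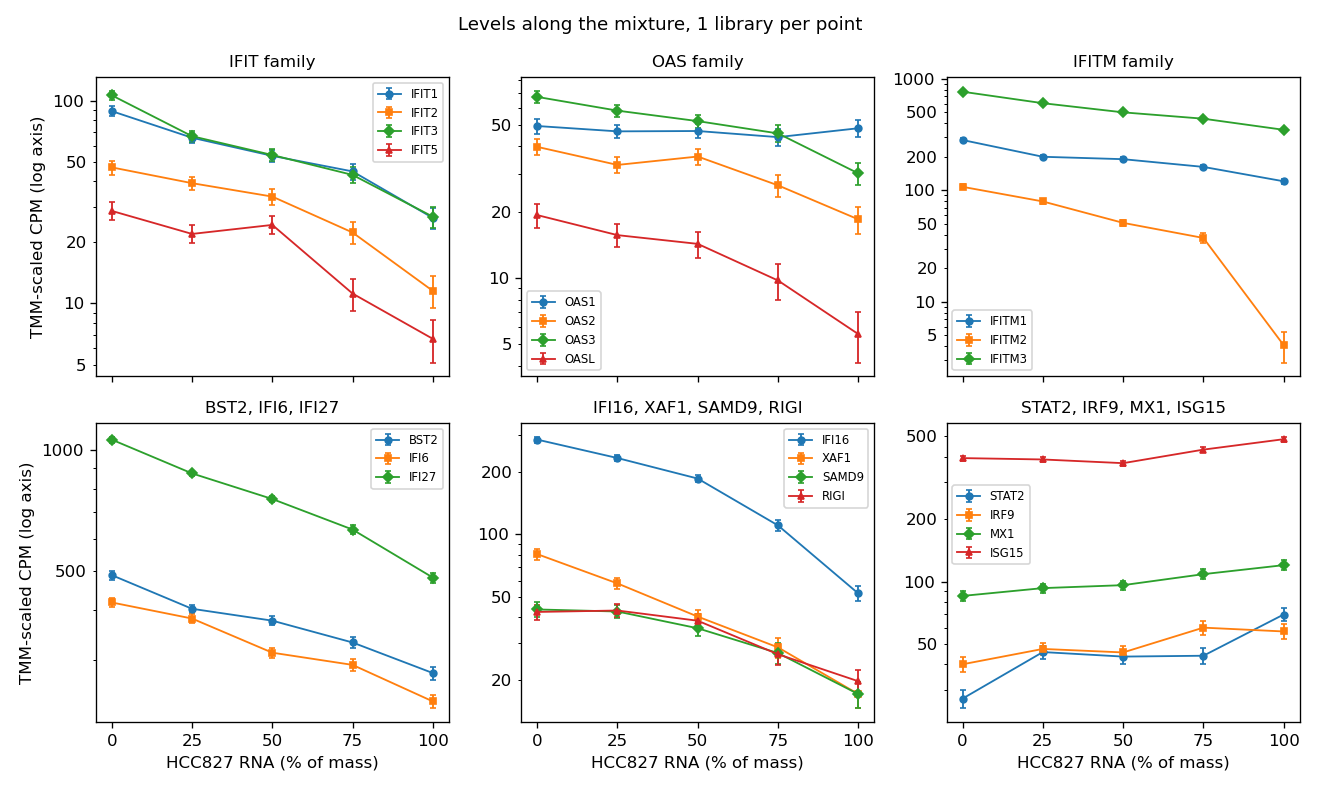
TMM-scaled CPM on a log axis against the HCC827 share of RNA mass, with 1 library per point and bars for the counting SD. IFITM2 drops to 4.09 CPM in the pure HCC827 library, OAS1 stays between 44.04 and 49.5 CPM, and STAT2 rises from 27.4 to 69.5 CPM.

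Of the 4 OAS genes, 3 fell and OAS1 did not pass, where 22.3% of all genes tested fell. OAS proteins make short oligoadenylates that switch on the nuclease RNase L, while the related OASL lacks that activity and acts with RIG-I. OASL (chromosome 12, 121017763 to 121039246) was at 19.4, 15.7, 14.4, 9.79 and 5.58 CPM, and its slope came to -1.54 ± 0.33 (SE; adjusted p = 0.0021 by the edgeR quasi-likelihood test). OAS3 was at 67.2, 58.2, 52.1, 45.8 and 30.1 CPM, dropping at each step with a slope of -1.01. OAS2 was at 39.8, 32.9, 35.9, 26.6 and 18.6 CPM, with a slope of -0.92. It lost its call without the 0:100 library, where the slope was -0.61 (edgeR quasi-likelihood test, adjusted p = 0.12). OAS1, which shares a cluster with OAS3 and OAS2 on chromosome 12 (112905856 to 113011723), was at 49.5, 46.8, 47.0, 44.04 and 48.3 CPM. Its pure libraries differed 1.02-fold (95% interval 0.81 to 1.30, from counts alone). Under library totals OAS1 was 1.36-fold lower in 0:100 and passed as falling, at a slope of -0.47 (edgeR quasi-likelihood test, adjusted p = 0.0304). Whether it differs from its neighbours in slope was not tested.

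Among the list genes for RNA sensors and helicases, RIGI and IFIH1 fell and DDX60 did not pass, where 22.3% of all genes tested fell. DHX58, a sensing gene of the pathway lists, had 203 reads and a slope of 0.01 and did not pass. RIGI encodes RIG-I and IFIH1 encodes MDA5, helicases that signal through MAVS; DDX60 is a related helicase. RIGI (chromosome 9, 32455302 to 32526208) was at 42.4, 43.1, 38.5, 26.6 and 19.7 CPM, level over the first 2 libraries and lower after, with a slope of -1.09. IFIH1 was at 30.3, 27.8, 26.9, 25.9 and 17.5 CPM, and most of its drop lay between the last 2 libraries. Its slope of -0.62 (edgeR quasi-likelihood test, adjusted p = 0.0468) passed in 6 of 13 alternatives and was -0.30 (adjusted p = 0.441, edgeR quasi-likelihood test) without 0:100. It also missed the threshold without 100:0, 75:25 or 50:50, at slopes of -0.73, -0.65 and -0.64, in the edgeR fit with no read filter (-0.65), under DESeq2 (-0.63) and with the length trend removed (-0.54). DDX60 was at 26.2, 26.4, 34.7, 33.6 and 27.1 CPM, higher in 2 mixed libraries than in either pure one.

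Of 4 further genes for nucleic acid factors, IFI16 and SAMD9 fell, beside 22.3% of all genes tested. IFI16 is a DNA-binding protein of the nucleus linked to innate sensing (chromosome 1, 158999968 to 159055155). It was at 285.5, 232.8, 185.5, 110.5 and 52.1 CPM, and its slope came to -2.27 ± 0.23 (SE; adjusted p = 1.15e-05 by the edgeR quasi-likelihood test). Each step was lower than the one before, and the ends were 5.48-fold apart (95% interval 4.59 to 6.59, from counts alone). SAMD9 (chromosome 7, 93099513 to 93118023), which restricts poxviruses, was at 43.6, 42.6, 35.4, 26.9 and 17.1 CPM, and its slope came to -1.25 ± 0.23 (SE; adjusted p = 0.000822 by the edgeR quasi-likelihood test). Its neighbour SAMD9L had 31 reads in 100:0 and 19 in 0:100 and did not pass. The exonuclease gene ISG20 was at 28.0 CPM in 100:0 and 33.5 in 0:100 and did not pass either.

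IFI27, BST2 and IFI6, grouped here for membrane and organelle proteins apart from the IFITM genes, fell as well. Of all genes tested, 22.3% fell. IFI27, whose protein is found at mitochondria and the nuclear envelope, was the gene of the list with most reads (chromosome 14, 94104836 to 94116695). It was at 1058, 872.4, 753.7, 633.0 and 481.2 CPM, 2.20-fold lower in 0:100, with a slope of -1.09. BST2 encodes tetherin, which holds budding virus at the cell surface, and was at 487.9, 402.6, 376.2, 332.1 and 278.9 CPM, with a slope of -0.76. IFI6 was at 417.4, 380.8, 313.3, 292.2 and 237.2 CPM, with a slope of -0.80. In all 3 genes every library was lower than the one before it.

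XAF1, a proapoptotic partner of XIAP (chromosome 17, 6755447 to 6775647), was at 80.4, 58.2, 40.3, 28.7 and 17.1 CPM, and its slope came to -2.14 ± 0.18 (SE; adjusted p = 4.14e-06 by the edgeR quasi-likelihood test). It dropped at each step and was 4.70-fold lower in 0:100. PRAL, a gene model on the opposite strand, had 657 reads and fell with a slope of -1.69. TRIM22, which restricts several viruses, had 12, 17, 1, 4 and 2 reads, a slope of -2.66 and did not pass (edgeR quasi-likelihood test, adjusted p = 0.0549). TRIM5, on the opposite strand of the same span, had 334 reads.

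The genes that rose were STAT2, IRF9 and MX1, of which STAT2 and IRF9 encode subunits of the ISRE-binding complex. STAT2 (chromosome 12, 56341597 to 56360203, minus strand) was at 27.4 CPM in 100:0, then 45.9, 43.6 and 44.04, and 69.5 in 0:100. The 3 mixed libraries were level and lay between the ends, which were 2.54-fold apart (95% interval 1.97 to 3.29, from counts alone). The fitted slope came to 1.02 ± 0.23 (SE; adjusted p = 0.00331 by the edgeR quasi-likelihood test), and without 0:100 it was 0.71 and did not pass. Under library totals it was 0.61 and passed. IRF9 was at 40.1, 47.5, 45.7, 60.1 and 57.6 CPM, with a slope of 0.55 (edgeR quasi-likelihood test, adjusted p = 0.0208). It did not pass under library totals (slope 0.15), under DESeq2 (0.57), with the length trend removed (0.30), without 100:0 (0.50) or without 25:75 (0.47). ENSG00000259529, which overlaps IRF9 on the same strand, had 189 reads against 846 of its own. MX1, a GTPase that blocks influenza and other viruses, was at 85.4, 93.1, 96.2, 108.7 and 120.1 CPM, rising at each step. Its slope of 0.48 (edgeR quasi-likelihood test, adjusted p = 0.00736) was 0.075 under library totals and 0.43 without 0:100, and passed in neither.

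The other 2 transcription factors did not pass. IRF1, which also drives basal expression of some of these genes, was at 39.5, 44.5, 40.0, 37.7 and 45.0 CPM. IRF7, which amplifies type I interferon production, was at 35.1 CPM in 100:0 and 39.4 in 0:100. IRF1 overlaps ENSG00000283782 on the opposite strand, which had 703 reads against 711 and fell with a slope of -1.42.

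The list genes ISG15, USP18 and HERC6 did not pass. Of the ISG15 conjugation genes in the pathway lists, HERC5 fell, UBE2L6 rose and UBA7 did not pass. ISG15, a ubiquitin-like protein that is linked to other proteins and also secreted, was at 393.0, 387.1, 371.6, 431.7 and 484.5 CPM. The pure libraries were 1.23-fold apart (95% interval 1.14 to 1.33, from counts alone), higher in 0:100 after TMM scaling and 1.08-fold lower there under library totals, while the slope of 0.30 missed the threshold (edgeR quasi-likelihood test, adjusted p = 0.0646) and was -0.10 under library totals. It passed under limma-voom, at 0.30, and without 100:0, at 0.48. USP18, which removes ISG15 and damps receptor signalling, was at 33.6, 25.5, 20.5, 21.3 and 23.1 CPM and had a slope of -0.59 (edgeR quasi-likelihood test, adjusted p = 0.0729). It passed under library totals (slope -0.99), when each library had to hold 10 reads (-0.65), after removal of the length trend (-0.73) and without 0:100 (-0.97). HERC6 was at 18.6 CPM in 100:0 and 15.6 in 0:100.

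The remaining genes did not pass. The guanylate-binding GTPases GBP1 and GBP2 were at 28.3 and 27.4 CPM in 100:0 and at 24.9 and 37.2 in 0:100. The ADP-ribosyltransferase genes PARP9 and PARP14 went from 55.7 to 52.4 and from 80.4 to 67.3 CPM, and PARP9 shares its span with DTX3L on the opposite strand, which had 2330 reads. IFI44 went from 73.3 to 61.0 CPM, IFI44L from 89.8 to 112.3 and IFI35 from 53.9 to 53.5. With the length trend removed, IFI44 passed as falling and IFI44L as rising. Under library totals, the slopes of 8 of the 17 genes that did not pass changed sign. Another 8 of the 17 passed as falling under library totals, namely TRIM22, USP18, OAS1, PARP9, PARP14, GBP1, HERC6 and IFI44. The plot of slopes shows where these genes lie beside those that passed.

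**Figure D3:**
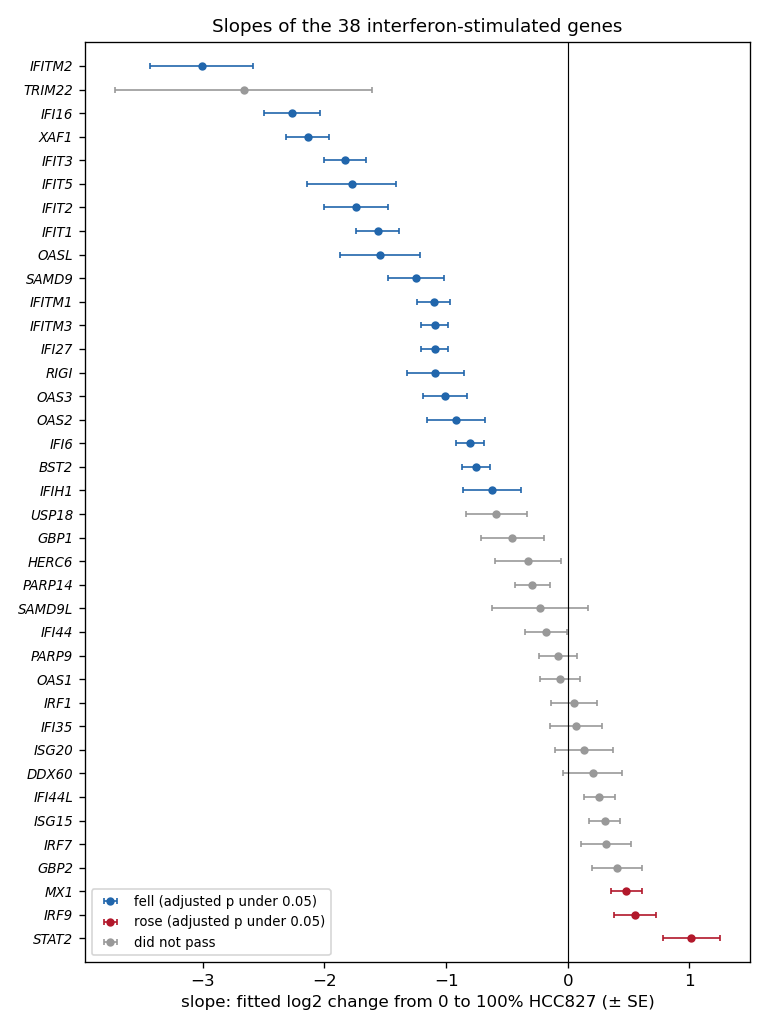
Slope of each of the 38 genes with its standard error, in log2 units from 0 to 100% HCC827, blue where it fell, red where it rose and grey where it did not pass. The slopes that fell run from -3.01 (IFITM2) to -0.62 (IFIH1), and those that rose from 0.48 (MX1) to 1.02 (STAT2).

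Of the 18 genes that fell, 16 passed in each of 13 alternatives, the exceptions being OAS2 and IFIH1, and none of the 18 changed sign in any. With the per-library trend on transcript length removed, 19 genes of the list fell, and with mitochondrial reads left out, 18 did. After removal of the length trend IFIH1 no longer passed, while USP18 and IFI44 did. In 21 of the 38 genes all 3 mixed libraries lay between the pure ones, where 47% of all genes tested did so. The median ratio of observed to linearly mixed CPM over the list was 0.99 at 75:25, 0.96 at 50:50 and 1.00 at 25:75, against 1.00, 0.99 and 1.00 for all genes tested. Single genes departed on both sides. IFIT3 lay below the line at 75:25, at 66.7 CPM where 86.2 was mixed from the ends, with a counting SD of 5.89%. STAT2 lay below it at 25:75, at 44.04 against 59.0 CPM, with a counting SD of 8.91%. IFIT5 lay above it at 50:50, at 24.4 against 17.6 CPM, with a counting SD of 10.3%. At 75:25, ISG20 and GBP1 also lay above it, at 1.34 and 1.32 times the mixed value, and SAMD9L, with 180 reads in all, was at 1.39 to 1.57 times in the 3 mixed libraries.

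The rest of the interferon pathway was taken from 5 lists with 85 genes, of which 58 were tested. Of these, 12 fell and 13 rose, a share of calls that is close to the 45.8% of all genes. None of the 21 interferon genes could be tested: 18 had 0 reads in every library, which allows up to 3 reads in each, IFNE had 4 reads in all, and IFNA5 and IFNL3 had 1 each. Among 10 receptor and kinase genes, 1 fell and 3 rose. IFNGR1, the ligand-binding chain of the type II receptor, fell from 108 to 32 reads with a slope of -1.37, which did not pass without 100:0. IL10RB, the shared chain of the type III receptor, rose from 72 to 122 reads with a slope of 1.099, and IFNAR2, a chain of the type I receptor, with a slope of 0.87 that missed the threshold in each of the 5 fits that left out 1 library, under library totals (0.47), with no filter and under DESeq2. JAK1, a kinase at these receptors, rose from 333 to 464 reads with a slope of 0.75.

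Of 11 tested genes of nucleic acid sensing, 4 fell and 3 rose, beside the 22.3% and 23.5% of all genes. The kinase gene TBK1, which activates IRF3, was at 52 reads in 100:0 and 358 in 0:100, with a slope of 2.52. The related kinase gene IKBKE rose with a slope of 1.51, which did not pass without 100:0, and IRF3, their substrate, with a slope of 1.21. EIF2AK2, the RNA-activated kinase PKR, fell with a slope of -0.89. Of 9 tested regulators and ISG15 conjugation genes, HERC5, the main ligase for ISG15, fell with a slope of -1.40. UBE2L6, its conjugating enzyme, rose with a slope of 0.77, as did the phosphatase gene PTPN2, which lost its call under library totals and 5 other alternatives.

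Of 28 tested further interferon-stimulated genes, 6 fell and 5 rose, with a median slope of 0.03, where 22.3% of all genes fell and 23.5% rose. CMPK2 and RSAD2, neighbours whose enzymes make and act on nucleotides with antiviral effect, had the steepest slopes. CMPK2 had 46, 28, 22, 11 and 2 reads, with a slope of -2.94. RSAD2, which encodes viperin, had 67, 70, 53, 22 and 3 reads, with a slope of -2.47. SLFN5 fell with a slope of -1.38. Genes that rose included the immunoproteasome subunit gene PSMB8, with a slope of 1.05, and IFI30, a lysosomal thiol reductase, with a slope of 1.07. The chemokine gene CXCL10 had 0 reads in every library.

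**Figure D4:**
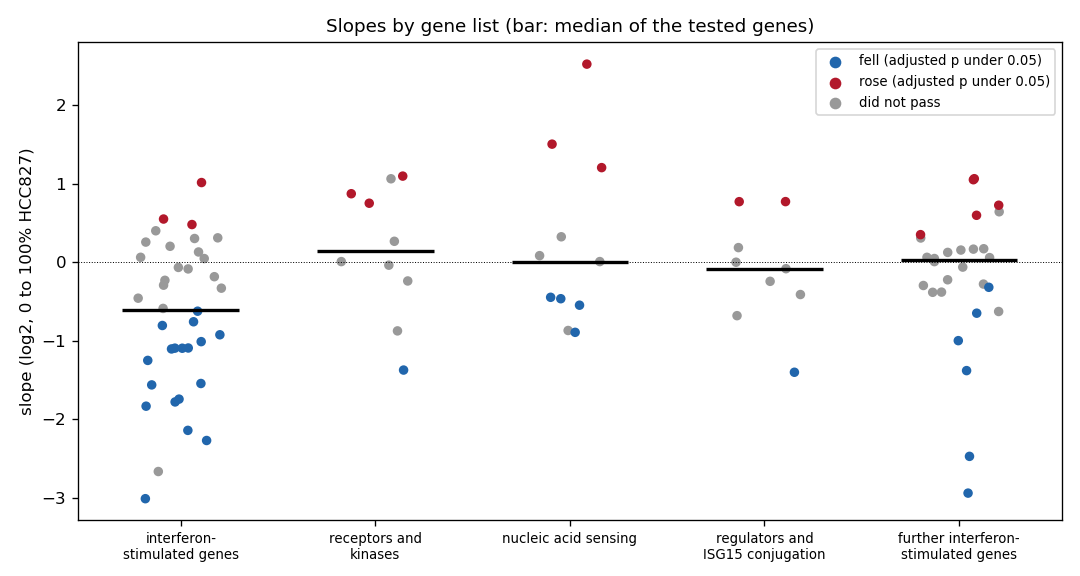
Slopes of the tested genes of each list, 1 point per gene, coloured by call, with a bar at the median. The 38 interferon-stimulated genes have a median of -0.60 and the further interferon-stimulated genes of 0.03, while TBK1 stands highest at 2.52.

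Long reads also assign transcripts, and protein-coding transcripts held 89.0% of the reads on the list, retained-intron transcripts 5.47% and transcripts marked for nonsense-mediated decay 3.82%. These pooled shares do not hold for every gene. In STAT2, the coding STAT2-201 held 30.7% of reads and STAT2-207, with no defined coding sequence, 32.0%. In IRF9, the coding IRF9-202 held 50.5% and the retained-intron IRF9-208 40.8%. Of 109 tested transcripts of the list, 50 fell and 3 rose, where 16.1% of all 31805 tested transcripts fell and 17.3% rose. Transcripts of 1 gene are not separate members: IFI16 and IFI27 had 10 and 8 tested transcripts, all of which fell. USP18-201, which held all reads of USP18, passed as falling, although the gene did not pass. Isoform usage was tested in 30 of the genes, and 0 passed (edgeR diffSpliceDGE, Simes). None had an unadjusted p under 0.05, and the gene-level F test called 0 with 2 under an unadjusted 0.05. Over all 7455 genes, 0.402% passed. The 2 main transcripts of OAS1, a gene known for isoforms that differ at the C terminus, came closest. OAS1-201 took 44.05% of the reads of the gene in 100:0 (95% Wilson interval 36.8 to 51.6) and 30.8% in 0:100 (23.5 to 39.2). OAS1-203 took 47.6% (40.2 to 55.1) and 66.9% (58.4 to 74.4), and the change in usage had an unadjusted p of 0.0899 and an adjusted p of 1 (edgeR diffSpliceDGE, Simes).

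In IFITM1 and IFITM2 the usage test did not pass, and IFITM3, with 1 tested transcript, had no such test. IFITM3-201 held 99.8% of the reads of its gene. IFITM1-202 took 54.6% in 100:0 and 53.1% in 0:100, and IFITM1-204 had 422 and 146 reads. IFITM2-201 and IFITM2-204 took 46.0% and 39.7% in 100:0, and had 5 and 6 of the 11 reads in 0:100, while IFITM2-205 went from 30 reads to 0, which allows up to 3. Among the genes with most reads, BST2-201 held 99.8% of its gene, ISG15-203 took 56.2% in 100:0 and 55.6% in 0:100, and ISG15-202 took 43.7% and 44.4%. IFI27 spread over 8 tested transcripts, of which IFI27-209 took 23.4% and 23.1% and IFI27-213 21.7% and 20.0%.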

How the data were processed

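The authors deposited 1 table per library with estimated counts of reads per transcript and a transcript length in bases, with no scaling. GRCh38, minimap2 2.24 and Salmon 1.9.0 are named in the submitters' processing notes, with no role or order; annotation release, strand use and the division of shared reads are not given in the sources used here. In 100:0, 2 values were not whole and were rounded. Copies of 161 repeated identifiers were summed. Of 227751 human transcripts, 224076 matched GENCODE v44, with 98.6% of human reads; others entered library totals only.

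Slopes were fitted over the 5 libraries with edgeR 4.0.16 (R 4.3.3), TMM scaling, a minimum of 10 reads in 2 or more libraries, and Benjamini-Hochberg adjustment over all genes or transcripts tested, at 0.05. A mixture is curved on the log scale, so slopes understate large ratios. For ratios of pure libraries, fewer than 3 reads were set to 3. Intervals of 95% cover counting error only, and reads without molecular identifiers are not independent molecules. Slope and usage tests were also run on simulated data. Few genes were changed there and all had the same dispersion, unlike in these data, so that run does not measure error rates here. Alternatives used DESeq2 1.42.0, limma 3.58.1, other scalings and filters, offsets that remove a length trend (lowess span 0.3), and each library left out.

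Members and lists were chosen with earlier results of these data known. By rule, called members have every library's value, the 10 steepest their SE and adjusted p, and each pathway list its 3 steepest called genes. JAK1, EIF2AK2, PSMB8, IFI30, CXCL10, DHX58 and UBA7 were picked after values were seen. So were transcripts of STAT2, IRF9 and USP18, the adjusted p of other members, and departures from linear mixing. Proteins of the IFITM genes are not shown here. Some values of the pathway lists are not reported here.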

Additional observations from a re-analysis of the deposited data

How the results depend on the processing

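Each ratio had 1 library, so no group could be tested against another. No paired analysis was possible because no ratio was replicated. Fits that each left out 1 library called 4067 to 5860 of all genes, lowest without 0:100, against 6175. Such fits called 18 to 21 genes of the list, with 17 to 18 falling and 1 to 3 rising; the single riser was IRF9, without 0:100. Library totals gave 26 genes falling and 1 rising, STAT2, and a ratio of sums of 2.23. Requiring 4-fold between the pure libraries left 5 genes of 17. Over all alternatives run, 18 to 27 genes of the list, 18 to 30 pathway genes, 36 to 57 transcripts and 0 genes for isoform usage passed.

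Signs changed only among genes that did not pass. Under library totals, slopes were -0.36 for IRF1, -0.34 for IFI35, -0.27 for ISG20, -0.20 for DDX60, -0.15 for IFI44L, -0.10 for ISG15, -0.094 for IRF7 and -0.0034 for GBP2. With the length trend removed, they were 0.036 for PARP14, 0.049 for SAMD9L, 0.031 for PARP9 and -0.18 for IFI35, and with 10 reads in every library -0.0063 for IRF1. Leaving out 1 library gave ranges of -0.75 to 0.38 for SAMD9L, -0.31 to 0.13 for IFI44, -0.20 to 0.02 for OAS1, -0.14 to 0.13 for IRF1, -0.075 to 0.18 for IFI35 and -0.19 to 0.32 for ISG20. For these sign changes the cause was not tested. Reads limit the genes with fewest: TRIM22 passed under library totals (-3.06), with no filter (-2.67) and without 50:50 (-2.12).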
